A study of Mus musculus with 35 samples.

Results

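The replication licensing genes measured here were Mcm2, Mcm3, Mcm4, Mcm5, Mcm6, Mcm7, Cdc6, Cdc7, Cdc45 and Pcna, and their probe sets were taken from the array's annotation by gene symbol. All 10 genes were on the array, with 12 of its 12422 probe sets, since Mcm3 (100062_at and 160496_s_at) and Mcm5 (100156_at and 162102_r_at) had a pair each. Marrow cells of C57Bl/6 mice, 7 to 9 weeks old by the study's methods and carrying CD45.1, were sorted and amplified as whole cells. The side population (SP), which pumps out a Hoechst dye and is rich in blood stem cells, was gated for cells that carry Sca-1 and lack Gr-1. Lower SP (LSP) came from the lower end of that region and upper SP (USP) from its upper end, with no overlap. CD8 T lymphocytes (CD8) were sorted as CD3 and CD8 positive cells. Each of these populations had 3 samples of 10 cells (LSP A, B and M, USP N, O and Z, CD8 B, C and D), by the labels, while by the methods each sample joined 4 amplifications of 10 cells, and each sample was run on 2 arrays. In addition there were 12 single SP cells (A to L) from the tip of the SP and 5 single-cell equivalents (SCE A to E), aliquots of 1 lysate of 40 such cells, which differ among themselves only by technique and by the share of the lysate drawn. The labels give male mice for all of these groups but USP, for which they give no sex, and name no animal for any sample. By the methods the marrow for single-cell or 10-cell experiments came from 1 mouse, so samples or cells may share an animal. The p-values therefore measure the spread between these samples and not between animals.

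A replication origin is licensed when Cdc6 and Cdt1 load the ring-shaped Mcm2 to Mcm7 helicase onto DNA that the origin recognition complex has marked. At the start of S phase the kinase Cdc7 with its partner Dbf4 phosphorylates the ring, and Cdc45 joins it to form the active helicase. Pcna is the sliding clamp that holds DNA polymerase at the fork. Most of these genes are transcribed under E2F factors as cells enter the cycle and are low in resting cells, and blood stem cells are known for spending most of their time at rest.

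Levels are given as log2 intensity. In the 10-cell samples, values under 7 (an intensity of 128) were set to that floor and the duplicate arrays of a sample were averaged. Of the SP arrays, 9 held negative values for 24.6% to 32.1% of probe sets (LSP A and M and USP N and O on both arrays, LSP B on 1), while both arrays of USP Z and all CD8 arrays held none, so the kind of array goes partly with the population. Of the T cell markers, 9 or 10 of 12 probe sets lay above the floor in each CD8 sample, and 0 to 3 in each SP sample. Of the stem cell markers, 6 to 8 of 9 probe sets lay above the floor in each SP sample and 0 or 1 in CD8, and Kit lay at the floor in all of them. In bulk samples such as these, fewer cells expressing a gene and less RNA per cell cannot be told apart.

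Across the 10-cell samples Pcna lay above the floor in all 6 SP samples and in no CD8 sample, Cdc7 in the 3 USP samples alone, and Mcm5, Cdc6 and Mcm7 varied widely among the SP samples. Of the 12 probe sets, 10 rose above the floor on at least 1 array and were tested. Mcm6 and the second Mcm5 probe set (162102_r_at) lay at the floor on all 18 arrays. Duplicate arrays of a sample, which share its amplified cDNA, differed by a median of 0.19 in log2 level, and at most by 0.69, over the 41 of 90 pairs of values in which both arrays lay above the floor.

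**Figure D1:**
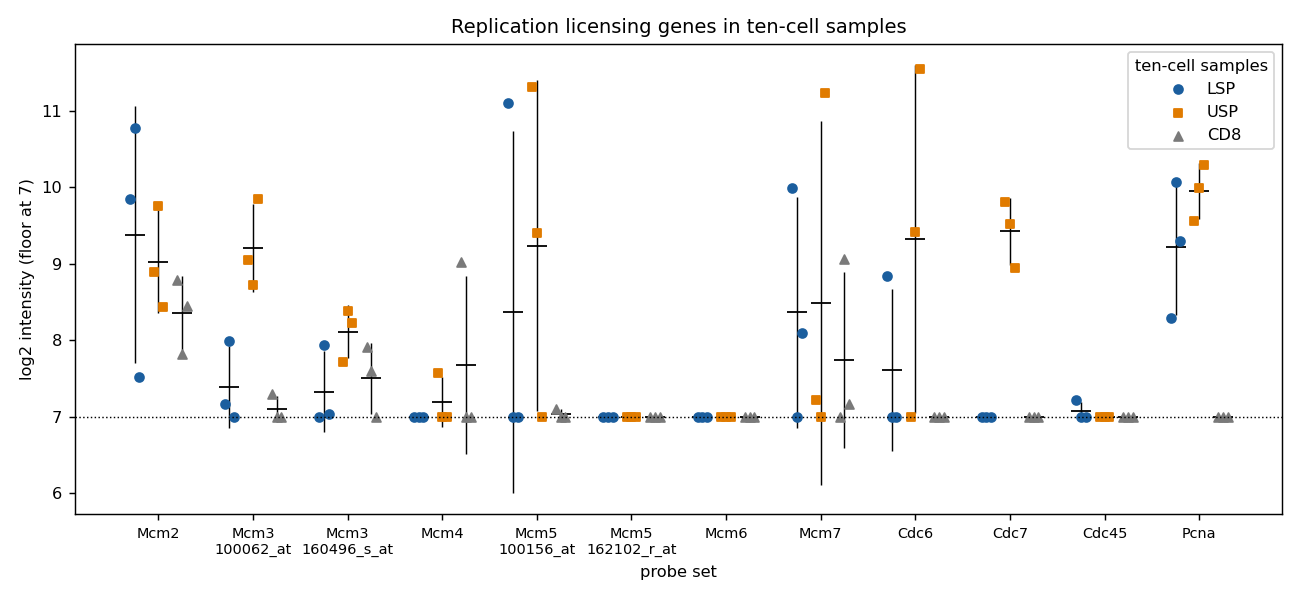
Log2 intensity of the 12 licensing probe sets in LSP, USP and CD8 (3 samples of 10 cells each, duplicate arrays averaged). Points are samples, horizontal marks are means, vertical lines are SD, and the dotted line is the floor of 7. Pcna lies above the floor in all LSP and USP samples and at it in CD8, and Cdc7 lies above it in USP alone.

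Pcna, the clamp of the replication fork, had levels of 8.29 in LSP A, 10.07 in LSP B and 9.29 in LSP M. It had levels of 9.56 in USP N, 9.99 in USP O and 10.29 in USP Z. All 3 CD8 samples lay at the floor, with intensities of at most 39 on any array, and no SP sample overlapped them. The mean was 9.58 in SP (SD 0.73, n = 6) against the floor in CD8, which makes SP at least 5.99-fold higher (by 2.58 ± 0.37 on the log2 scale, SE, adjusted p = 0.00949). LSP alone was at least 4.65-fold above CD8 (adjusted p = 0.0356) and USP alone at least 7.72-fold (adjusted p = 0.0115), both against the same CD8 samples. For LSP minus USP the log2 difference was -0.73 (standard error 0.43, adjusted p = 0.876), and LSP and USP overlapped. The LSP call was lost with any 1 CD8 sample left out (adjusted p of 0.105, 0.102 and 0.104 without B, C and D) and without LSP B, LSP M, USP N or USP O (0.05003 to 0.0886). With a floor of 8 none of these calls on Pcna held (adjusted p of 0.0544 for SP, 0.202 for LSP and 0.0502 for USP). All SP samples lay above all CD8 samples for 5.53% of the 6823 tested probe sets.

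Cdc7, the kinase that fires licensed origins, was at the floor in LSP A, B and M and in CD8 B, C and D, and had levels of 9.81 in USP N, 9.52 in USP O and 8.94 in USP Z. USP did not overlap LSP or CD8. Cdc7 was the tested probe set with the second smallest p between LSP and USP (log2 difference -2.42, standard error 0.21, adjusted p = 0.0197), at least 5.36-fold lower in LSP. The floor made its SD 0 in LSP and CD8, against 0.44 in USP, and all of these enter the shared standard error and p. On arrays with negative values its intensity was at most 23 in LSP and between 708 and 947 in USP N and USP O, and on arrays without them it was 43 in LSP B and 425 and 568 in USP Z. USP was above CD8 by the same fold (adjusted p = 0.000848). SP taken as the mean of LSP and USP was above CD8 by 1.21 ± 0.18 (SE, adjusted p = 0.0113), although LSP was at the floor. The LSP against USP call was lost without any 1 CD8 sample, which enter that test through the shared estimate of the spread (adjusted p of 0.0595, 0.0705 and 0.0608 without B, C and D), and when LSP and USP were fitted without CD8 (adjusted p = 0.21), and with a floor of 8 (adjusted p = 0.108), on the arrays with negative values alone (adjusted p = 0.178) and by the methods' t-test (adjusted p = 0.402). The SP against CD8 call was lost with a floor of 8 (adjusted p = 0.0761) and by the methods' t-test (adjusted p = 0.509).

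Mcm3, a subunit of the helicase ring, gave levels on its first probe set (100062_at) of 7.16 in LSP A, 7.99 in LSP B, with LSP M at the floor. The same probe set gave 9.05 in USP N, 8.72 in USP O and 9.84 in USP Z. CD8 B stood at 7.29 and CD8 C and D at the floor. USP therefore lay above all samples of LSP and of CD8. USP was at least 4.30-fold above CD8 (log2 difference 2.11, standard error 0.36, adjusted p = 0.0234), a call lost without USP N (adjusted p = 0.0557) and without CD8 B, C or D (0.0592, 0.0789 and 0.0805). It was also lost with a floor of 6 (adjusted p = 0.0786) or 8 (0.0543), with no filter (0.0695), after quantile normalization (0.0584) and by the methods' t-test (0.0736). LSP minus USP was -1.82 (standard error 0.36, unadjusted p = 0.0015), with an adjusted p = 0.267. The other Mcm3 probe set (160496_s_at) was less far apart: it stood at the floor, 7.94 and 7.04 in LSP A, B and M, at 7.72, 8.39 and 8.23 in USP N, O and Z, and at 7.91, 7.59 and the floor in CD8 B, C and D. Its LSP minus USP difference was -0.79 (standard error 0.35, adjusted p = 0.84), and its LSP and USP samples overlapped.

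Of the 10 tested probe sets, Pcna and Cdc7 were called higher in SP than in CD8, where 2.83% of all 6823 tested probe sets were. Pcna was called higher in LSP than in CD8 (2.17% of all probe sets), and Pcna, Cdc7 and Mcm3 100062_at were called higher in USP than in CD8 (2.21% of all). Cdc7 was called lower in LSP than in USP, where 0.0733% of all probe sets were (5 of 6823). All LSP samples lay below all USP samples for Cdc7 and Mcm3 100062_at, and for 2.89% of all probe sets. The median log2 difference over the 10 licensing probe sets was -0.76 for LSP minus USP and 1.02 for SP minus CD8, against 0.00 and 0.04 over all tested probe sets. These comparisons share samples, and the 10 are those that passed a filter on low values.

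**Figure D2:**
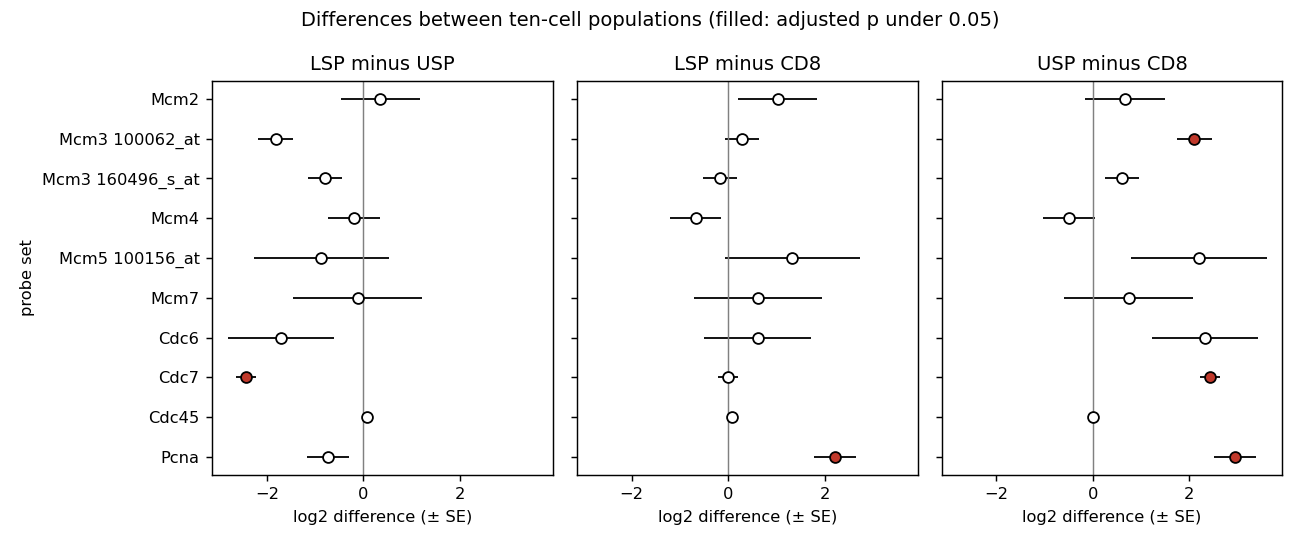
Log2 difference of the 10 tested licensing probe sets for LSP minus USP, LSP minus CD8 and USP minus CD8, with the standard error of the limma fit as horizontal lines. Filled points have an adjusted p under 0.05: Cdc7 in the first panel, Pcna in the second, and Mcm3 100062_at, Cdc7 and Pcna in the third.

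Sums of some other markers differed between LSP and USP. No tested granulocyte and monocyte, erythroid or megakaryocyte probe set was called between them. In the sums of intensity given here, each probe set at the floor counts as 128. The summed intensity of 10 probe sets of granulocyte and monocyte markers was 2496 to 5029 in LSP and 5223 to 10148 in USP. Of these probe sets 2 or 3 lay above the floor in LSP and 3 to 6 in USP, although the defining genes Mpo and Elane were at the floor in all samples. Camp and Ltf lay above the floor in USP O alone (10.91 and 9.81), and Ngp in USP O (10.62) and USP N (7.47). S100a8, from the same list, overlapped between LSP (9.56 to 11.63) and USP (10.99 to 11.78). The summed intensity of 4 probe sets of erythroid markers was 534 to 814 in LSP and 2092 to 2854 in USP, and Hba-a1, an alpha globin gene, was the one erythroid gene above the floor in USP, while Klf1, Epor and Alas2 lay at it there. Hba-a1 was also at 10.88 in CD8 B, with the other CD8 samples at the floor. Its LSP minus USP difference was -3.08 (standard error 1.06, limma adjusted p = 0.716). Of 3 probe sets of megakaryocyte markers, 1 lay above the floor in each USP sample and none in LSP or CD8 (summed intensity 472 to 757 in USP and 384, which is floor alone, in LSP and CD8). It was a probe set of Vwf, at 7.76, 8.47 and 8.97 in USP N, O and Z (USP minus CD8 1.40, standard error 0.28, adjusted p = 0.0397, and LSP minus USP -1.40, adjusted p = 0.267), while the other Vwf probe set and Pf4 lay at the floor in all samples. Camp, Ltf, Ngp, S100a8, Hba-a1 and Vwf were named after their values were seen. Their part in the differences of Cdc7 and Mcm3 was not tested.

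The other helicase genes did not pass the test in any of these comparisons. Mcm2 was above the floor in all 9 samples, at 9.84, 10.78 and 7.52 in LSP A, B and M. It stood at 8.90, 9.76 and 8.43 in USP N, O and Z, and at 8.78, 7.82 and 8.45 in CD8 B, C and D. The LSP samples thus spanned both other groups, and SP minus CD8 was 0.85 (standard error 0.71, adjusted p = 0.609). Mcm4 was above the floor in CD8 B (9.02) and USP N (7.57) alone. CD8 B also carried B cell markers, which were chosen after their values were seen. Ms4a1 stood at 12.78 in CD8 B alone, with the other Ms4a1 probe set at the floor. Cd79a stood at 9.56 in CD8 B and 8.88 in USP O, and at the floor elsewhere. Cd79b stood at 10.12 in CD8 B and 10.94 in CD8 C, and lay above the floor in LSP B and all USP samples. The link of these markers to the Mcm3, Mcm4 and Mcm5 levels of CD8 B was not tested. Cdc45, the helicase cofactor, was above the floor in LSP A alone (7.22).

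Mcm5, measured by 100156_at, was at 11.10 in LSP A, 11.31 in USP N and 9.40 in USP O. It was at the floor in LSP B, LSP M and USP Z and at or near it in CD8 (7.10 in CD8 B). The 3 samples in which it was high came from both SP populations, so its SD was 2.37 within LSP (n = 3) and 2.16 within USP (n = 3), and LSP minus USP was -0.87 (standard error 1.41, adjusted p = 0.968). The same 3 samples were the ones in which Mki67, a protein of cycling cells (99457_at), stood highest, at 11.5 in each, with 7.77 in LSP M and the floor in LSP B, USP Z and all CD8 samples. The other Mki67 probe set (161931_r_at) was at 8.20, 8.08 and 9.25 in LSP A, USP N and USP O, and at the floor elsewhere. Lig1, the ligase that joins Okazaki fragments, was chosen after its values were seen. On 92551_at it stood at 9.92, 9.61 and 9.48 in LSP A, USP N and USP O, and at 7.16 or less elsewhere. The other Lig1 probe set (162004_i_at) was at the floor in all 10-cell samples. Top2a, a topoisomerase, was also highest in LSP A, USP N and USP O, at 10.79, 9.80 and 10.24. It was nearly as high in LSP M (9.79), and stood at 8.90 in LSP B and 8.89 in USP Z. Ccna2 and Rrm2 did not follow these 3 samples. Ccna2, the cyclin of S phase, was at the floor in LSP A and at 10.38, 7.97 and 9.69 in USP N, O and Z. Rrm2, a ribonucleotide reductase subunit, was at 8.58 in LSP A, 8.09 in LSP M and the floor in USP O.

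Cdc6 and Mcm7 each had a pattern of their own. Cdc6, the loading factor, was at 8.83 in LSP A, 9.41 in USP O and 11.54 in USP Z, and at the floor in LSP B, LSP M, USP N and all CD8 samples. Mcm7 was at 9.99 in LSP A, the floor in LSP B and 8.10 in LSP M. It was at 7.22 in USP N, the floor in USP O and 11.23 in USP Z, and at the floor, 9.06 and 7.16 in CD8 B, C and D. LSP A was the one sample with Mcm5, Cdc6 and Mcm7 all above 8, and USP Z had the highest Cdc6 and Mcm7 with Mcm5 and Mki67 at the floor. The log2 difference, USP minus CD8, was 2.32 for Cdc6 (standard error 1.10, adjusted p = 0.364), and 0.74 for Mcm7 (standard error 1.34, adjusted p = 0.88). Both arrays of USP Z are of the kind without negative values, as are those of CD8, where Cdc6 was at the floor.

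**Figure D3:**
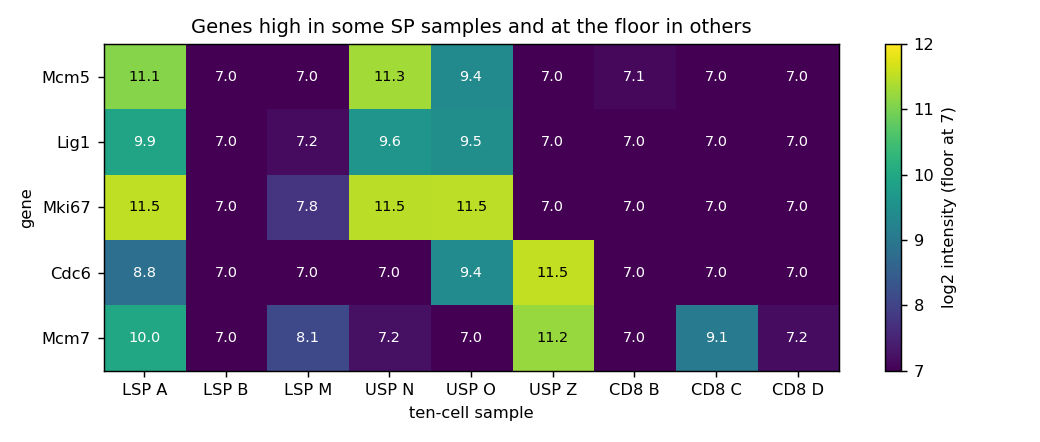
Log2 intensity (colour and printed value, floor of 7) of Mcm5 100156_at, Lig1 92551_at, Mki67 99457_at, Cdc6 and Mcm7 in each 10-cell sample. Mcm5, Lig1 and Mki67 are high in LSP A, USP N and USP O, whereas Cdc6 and Mcm7 are highest in USP Z.

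Letters of the start regions of these genes are shown because the licensing genes are textbook E2F targets and these members differed in where they were high. Windows of 250 bases before to 50 bases after an annotated start were read from RefSeq (GRCm38.p6), which held 11 windows for 9 of the 10 genes, and none for Mcm4. The E2F letters TTTCCCGC, TTTGGCGC, TTTCGCGC and TTTGCCGC were searched on both strands (matches may overlap each other) and were found in 5 of 11 windows, of Mcm3, Mcm5, Mcm6, Mcm7 and Cdc6, and in 2.26% of all 32851 windows of this length. Of the members shown, Mcm3 and Mcm5 held matches, in capitals, and Cdc7 and Pcna did not hold these letters. The regions are chr1:20820263-20820562 (minus strand) for Mcm3, chr8:75109259-75109558 (plus strand) for Mcm5, chr5:106964072-106964371 (plus strand, the first of a pair of annotated starts) for Cdc7 and chr2:132253131-132253430 (minus strand) for Pcna.
Mcm3: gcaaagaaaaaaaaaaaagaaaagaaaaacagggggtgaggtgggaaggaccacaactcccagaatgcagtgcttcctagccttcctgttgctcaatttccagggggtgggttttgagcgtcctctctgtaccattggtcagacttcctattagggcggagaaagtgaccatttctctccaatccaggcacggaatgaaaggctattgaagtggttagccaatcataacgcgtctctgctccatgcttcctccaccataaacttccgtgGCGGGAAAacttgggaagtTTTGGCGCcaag
Mcm5: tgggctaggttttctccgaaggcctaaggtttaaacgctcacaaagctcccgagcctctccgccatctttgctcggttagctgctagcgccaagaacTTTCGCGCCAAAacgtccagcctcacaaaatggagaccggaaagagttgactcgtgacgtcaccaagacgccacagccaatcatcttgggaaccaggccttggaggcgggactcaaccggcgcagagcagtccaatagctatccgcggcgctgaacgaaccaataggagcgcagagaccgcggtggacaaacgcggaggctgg
Cdc7: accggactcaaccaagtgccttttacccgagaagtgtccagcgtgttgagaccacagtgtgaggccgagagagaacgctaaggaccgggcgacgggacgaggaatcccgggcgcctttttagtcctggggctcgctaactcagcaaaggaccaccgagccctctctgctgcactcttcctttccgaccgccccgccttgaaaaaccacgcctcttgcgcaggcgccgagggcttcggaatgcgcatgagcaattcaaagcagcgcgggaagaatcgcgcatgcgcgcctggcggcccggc
Pcna: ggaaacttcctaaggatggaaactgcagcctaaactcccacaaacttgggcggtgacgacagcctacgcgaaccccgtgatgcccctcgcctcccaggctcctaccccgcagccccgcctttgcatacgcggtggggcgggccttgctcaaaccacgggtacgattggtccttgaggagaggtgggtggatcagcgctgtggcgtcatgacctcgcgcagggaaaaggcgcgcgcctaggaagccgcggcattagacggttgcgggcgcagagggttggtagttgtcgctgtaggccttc
In Mcm3 the matches began at positions 20 and 39 counted from the annotated start, and in Mcm5 at positions -153 and -149, which overlap. The letters CCAAT were in 8 of the 11 windows and in 37.4% of all windows. Mcm6, whose window is not shown, held 3 matches to the E2F letters and lay at the floor in all 10-cell samples. Any relation of the letters to the levels was not tested. A match is a description of letters and not of a bound factor.

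Other genes of the pathway were counted by list. Of 8 tested probe sets for origin recognition and licensing, Orc5, a subunit of the origin recognition complex, was called lower in SP than in CD8 (log2 difference -1.27, standard error 0.23, adjusted p = 0.0246), as were 3% of all 6823 tested probe sets. Levels of this probe set (100894_at) were 8.2 to 9.0 in CD8, and at most 7.8 in SP. The other Orc5 probe set (161256_at) was at the floor in all 10-cell samples. None of 8 probe sets for the start of replication, 16 for fork enzymes or 3 for nucleotide supply passed in any comparison of the 10-cell populations. Among the start genes, E2f1 (102963_at) was at the floor in all LSP and CD8 samples and at 7.5 to 9.2 in USP (LSP minus USP -1.48, standard error 0.38, adjusted p = 0.403). Ccna2 stood at 9.2 to 9.7 in CD8 and 7.0 to 7.1 in LSP (LSP minus CD8 -2.38, standard error 0.56, adjusted p = 0.0743). Dbf4, the partner of Cdc7, was at the floor in all 10-cell samples. Of 9 probe sets for mitosis and proliferation, Top2a, the topoisomerase of dividing cells, was called higher in SP than in CD8 (log2 difference 2.74, standard error 0.45, adjusted p = 0.0167), as were 2.83% of all, with all CD8 samples at the floor and SP at 8.9 to 10.8. Top2a passed against CD8 in LSP (adjusted p = 0.0286) and in USP (0.0378). The median log2 difference, LSP minus USP, was -0.68 over the start genes, -0.51 over the mitosis genes, -0.08 over the fork enzymes, -0.02 over the origin recognition genes and 0.65 over nucleotide supply, where 3 of 3 were higher in LSP, against 0.00 over all tested probe sets.

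In single cells a probe set was called detected at a log2 intensity of at least 9, and no floor was set. Across 12 cells, licensing probe sets were detected 6 times: Mcm2 in cells A, E and K, Mcm7 in cells A and K, and Mcm3 (160496_s_at) in cell F. None was detected in the other 8 cells. The arrays were alike in overall detection, with 9.61% to 11.99% of all 12422 probe sets detected per single cell and 10.9% to 12.6% per SCE.

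**Figure D4:**
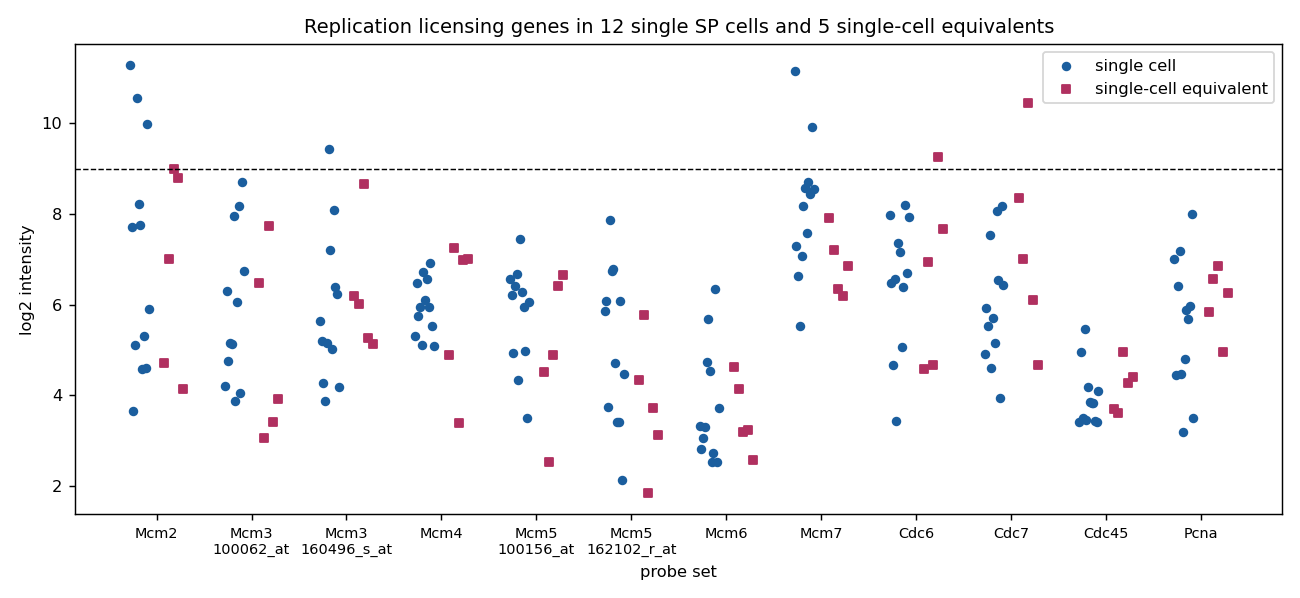
Log2 intensity of the 12 licensing probe sets in 12 single SP cells (circles) and 5 single-cell equivalents (squares). The dashed line is the detection level of 9. Mcm2 reaches it in 3 cells, Mcm7 in 2 and Mcm3 160496_s_at in 1, and Cdc6 and Cdc7 reach it in 1 single-cell equivalent each.

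Mcm2 had levels of 11.3 in cell A, 10.6 in cell E and 9.99 in cell K, and between 3.67 and 8.23 in the other 9 cells. It was detected in 25% of the cells (exact Clopper-Pearson 95% interval 5.49% to 57.2%) and in no SCE, the highest of which lay just under the detection level at 8.999. The SCE ranged from 4.14 up to that value, so the aliquots of 1 lysate also differed widely. Mcm7 stood at 11.2 in cell A and 9.92 in cell K, and between 5.54 and 8.70 in the other 10. Its SCE lay between 6.18 and 7.92, a narrower range than that of the cells. Mcm3 was at 9.43 in cell F on 160496_s_at, and that cell read 7.95 on its other probe set.

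Pcna was not detected in any of the 12 cells, which allows a share of detected cells of up to 26.5% (exact Clopper-Pearson 95% upper limit) and does not bear on levels under the detection level, and its highest level was 8.002 in cell K. In the 10-cell samples of SP it reached the same detection level in 5 of 6. Single cells and 10-cell samples differ in the material amplified and in the number of amplifications pooled, and the difference was not tested. Cdc7 was not detected in any cell, with the highest at 8.18 in cell K, but was at 10.5 in SCE C. Cdc6 was not detected in any cell, with the highest at 8.20 in cell J, and was at 9.26 in SCE D. Mcm4, Mcm5, Mcm6 and Cdc45 were under 8 in all 17 of these arrays.

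Cell K stood apart in replication genes. Of 81 probe sets for licensing, replication and proliferation, 13 were detected in it, against 2 to 7 in the other single cells and 1 to 3 in the SCE. Besides Mcm2 and Mcm7 they included Mki67 at 13.1, Ccna2 at 9.20, Lig1 at 10.4, the ribonucleotide reductase subunit Rrm1 at 11.5 and the clamp loader subunit Rfc5 at 12.1, of which Lig1, Rrm1 and Rfc5 were chosen after their values were seen. Not all of these genes were highest in cell K: Ccna2 was at 11.14 in cell J, Rrm1 at 12.17 in cell B and also detected in A, C and F, and Top2a was detected in cells G (11.98) and E (10.16) but not in K. Cell K also had the most probe sets detected of all the single cells, at 11.99% against 9.61% to 11.3% in the others. Cell A, with Mcm2 and Mcm7 at their highest, had 7 of the 81 detected, and its Mki67 (99457_at) stood at 7.8. The count therefore set cell K apart from cell A although both held the same helicase pair. Among the SCE, the same Mki67 probe set stood at 11.96 in SCE D and at 7.1 to 8.0 in the others.

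**Figure D5:**
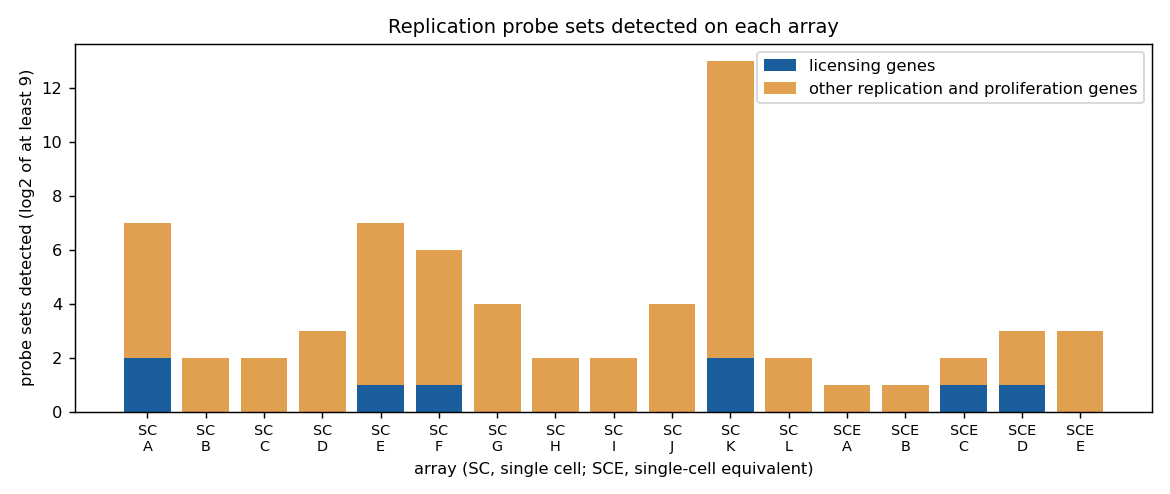
Number of probe sets at a log2 intensity of at least 9 on each array, out of 12 for licensing genes (lower part of each bar) and 81 for licensing, replication and proliferation genes together (whole bar). Cell K has 13, and the other single cells 2 to 7.

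Between single cells and SCE, 5 licensing probe sets reached the detection level on at least 1 array and were tested for a difference in mean, and none passed by limma. Of all 4659 tested probe sets 0.0429% passed (2, with 265 at an unadjusted p under 0.05), and none of the 5 had an unadjusted p under 0.05. The largest differences, single cells minus SCE, were -1.27 for Cdc7 (standard error 0.87, adjusted p = 0.864) and 1.24 for Mcm7 (standard error 0.74, adjusted p = 0.864).

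The spread among cells was set against that among SCE for the 3 licensing probe sets detected in at least 1 cell. The share of variance assigned to differences between cells, by maximum likelihood with the SCE as the technical part, was 0.79 for Mcm7, 0.36 for Mcm3 160496_s_at and 0.33 for Mcm2. A share of at least 0.5 was thus reached by 1 of 3, and by 41.6% of all 4215 probe sets detected in a cell. The mean distance from the median was 1.09 in cells and 0.52 in SCE for Mcm7 (exact one-sided permutation test over 6188 splits, p = 0.117, adjusted p = 0.488). For Mcm2 it was 2.19 in cells and 1.79 in SCE (exact permutation p = 0.261, adjusted p = 0.599), and for Mcm3 1.27 and 0.89 (exact permutation p = 0.281, adjusted p = 0.605). None of the 3 passed, where 0.546% of all 4215 did (23, with 525 at an unadjusted p under 0.05). With 1 array left out the share for Mcm3 ranged from 0.19 (without SCE A, or B) to 0.92 (without SCE C), that for Mcm2 from 0.16 (without SCE B) and 0.17 (without cell A) to 0.51 (without SCE E), and that for Mcm7 from 0.57 to 0.94.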

How the data were processed

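Cells were amplified by global single-cell RT-PCR (reverse transcription from the poly(A) tail, tailing and PCR), which keeps the 3′ ends of transcripts, and hybridised to Affymetrix MG-U74Av2 arrays. The values deposited by the authors are linear signal intensities scaled to nearly equal trimmed means on all 35 arrays, collected with Microarray Suite by their methods. The methods also describe RMA levels, but the deposited values are on a linear scale and were used as they are. Why some arrays hold negative values is not given in the sources used here. Control probe sets (66) were left out. Each array's intensities were floored at log2 7 for the 10-cell samples and duplicate arrays were averaged. The 6823 probe sets that exceeded the floor on any array entered limma 3.58.1 under R 4.3.3 (1 mean per population, Benjamini-Hochberg adjustment over all tested probe sets, adjusted p under 0.05). Folds against a population at the floor are lower bounds. Such a population, as CD8 for Pcna and Cdc7, shows no spread, so standard errors and p-values leave out any spread under the floor. Single cells and SCE were compared the same way with no floor, over 4659 probe sets that reached log2 9 on any of 17 arrays. The spread test permuted the absolute deviations from each group's own median over all splits of the arrays, and since a group of 5 lies closer to its own median than a group of 12, it leans towards small p. The limma fits, the variance estimate and the spread test were tested on simulated data. The values simulated for limma were Gaussian with no floor, so they do not cover populations that lie at it. The number of arrays limits the precision.

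The probe gene table named 1 gene for 10833 probe sets, several for 396 and none for 1193. Symbols of all 10 genes matched RefSeq by gene ID. The text names every licensing probe set and, from lists of other pathway genes, those past the threshold, the 3 of largest difference in a list, and Mki67, Ccna2, E2f1, Dbf4, Top2a and Rrm2. The genes and lists were chosen with earlier results of these data known. The labels' array numbers mark duplicate arrays of a sample and pair nothing between populations. Alternatives were another floor, filter, scaling or test, arrays of 1 kind, and each sample left out.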

Additional observations from a re-analysis of the deposited data

Results flagged for a closer look

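Cdc7 stood out because its difference from CD8 was not alike in LSP and USP: LSP minus CD8 was 0, with both at the floor, and USP minus CD8 was 2.42. The flag was set by LSP minus USP itself, -2.42 on the log2 scale (standard error 0.21, limma adjusted p = 0.0197), so this p is no separate test of it. All 3 USP samples lay above all LSP samples. The call was lost without any 1 CD8 sample (limma adjusted p of 0.0595 to 0.0705) and when LSP and USP were fitted without CD8 (0.21). No licensing probe set had an SCE past Dixon's 95% critical value. The nearest was Mcm3 160496_s_at, where the gap from SCE C to the next value was 0.700 of the range, against a critical value of 0.71.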

How the results depend on the processing

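The numbers of licensing probe sets called were 2 for SP against CD8, 1 for LSP against USP, 1 for LSP against CD8 and 3 for USP against CD8. With a floor of 8 they were 0, 0, 0 and 1, and with a mean level of at least 8 they were 1, 0, 1 and 1. Arrays without negative values gave 4, 2, 1 and 4, in which LSP is a lone sample assumed to vary like the other groups, as is USP. Arrays with negative values alone, an alternative added after seeing the data, gave 0 for LSP against USP. The methods' t-test after adjustment gave 1, 0, 0 and 2, and unadjusted 1 for SP against CD8 and 2 for LSP against USP. Populations compared alone gave 0 for LSP against USP and 0 for LSP against CD8, and for the latter no filter and quantile normalization also gave 0. With a replicate block (sample as a random effect and array number as a fixed effect, correlation 0.918) the counts were 2, 1, 1 and 3, and no call of a licensing probe set changed. The array numbers pair nothing: deviations of same-numbered arrays of different populations correlated between -0.07 and 0.12. Leaving out 1 sample gave 0 to 1 calls for LSP against USP and 0 to 1 for LSP against CD8. Over the samples left out, the adjusted p ranged from 0.0022 to 0.0705 for Cdc7 in LSP against USP and from 0.00166 to 0.0421 for Pcna in SP against CD8. Every log2 difference of a called licensing probe set kept its sign under all settings in which it was tested. Single cells and SCE gave 0 calls by mean or spread under all settings run. The number of probe sets with at least 0.5 of the variance between cells was 1, and 2 with a floor of 7, 2 after quantile normalization, and 1 to 2 with 1 array left out (2 without SCE C and without SCE E). Detections at log2 8 and 10 in place of 9 were 19 and 3 over the single cells (6 at 9) and 6 and 1 over the SCE (2 at 9). Values under the floor have no order, so differences between populations that both lie there could not be seen. The cause of these changes was not tested.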
